A study of Mus musculus with 69 samples.

Results

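The interferon regulatory factors (IRFs) are the transcription factors that carry the interferon response from receptor to gene, and their genes were followed here in bone marrow-derived macrophages (BMDMs) exposed to interleukin-4 (IL-4). The 8 genes were taken by symbol, Irf1, Irf2, Irf3, Irf4, Irf5, Irf7, Irf8 and Irf9, from 24537 genes listed. All 8 passed the filter on low expression in the 3 tables tested, which kept 11907, 12088 and 12079 genes. BMDMs are bone marrow cells differentiated for 7 days in macrophage colony-stimulating factor, and IL-4, the cytokine of type 2 immunity, was given at 20 ng/ml. Expression was measured by poly(A) RNA-seq as TPM, transcript levels scaled to gene length and library depth, so that levels of genes can be compared. In mm10 the genes lie at chr11:53770014-53777324 (Irf1), chr8:46739745-46847458 (Irf2), chr7:44997648-45002848 (Irf3), chr13:30749233-30766981 (Irf4), chr6:29529282-29537320 (Irf5), chr7:141263183-141266424 (Irf7), chr8:120736358-120756692 (Irf8) and chr14:55603985-55610030 (Irf9), with Irf7 on the minus strand and the others on the plus strand.

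Cells came from female mice aged 8 to 12 weeks. In the first experiment, BMDMs of the strains C57BL/6J (C57), NOD/ShiLtJ (NOD), SPRET/EiJ (SPRET), BALB/cJ (BALB) and PWK/PhJ (PWK) were left untreated (basal) or kept in IL-4 for 24 h, with 3 libraries a group and 2 for PWK basal. A time course of C57 and SPRET cells at basal, 1, 6 and 24 h had 2 libraries a group. The same 4 times were sampled, with 2 libraries each, in Egr2 fl/fl cells (Egr2WT) and in LyzM-Cre Egr2 fl/fl cells (Egr2MKO). Both of these genotypes carry the floxed allele of Egr2, a transcription factor of late IL-4 responses. The Cre in Egr2MKO is driven by a myeloid gene, and no LyzM-Cre control without floxed alleles was analysed here. Finally, 2 basal and 2 IL-4 libraries came from each of the F1 hybrids of C57 with NOD and of C57 with SPRET, which hold both parental genomes in a cell.

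IRF proteins share a DNA-binding domain that recognises the interferon-stimulated response element (ISRE). Irf3 and Irf7 are switched on by pattern-recognition receptors and drive the type I interferon genes, while Irf5 acts downstream of Toll-like receptors. Irf9 is the DNA-binding subunit of ISGF3, the complex that turns on interferon-stimulated genes. Irf1 is an activator induced by interferon-gamma, Irf2 competes with it for the same sites, and Irf8 sets the monocyte and macrophage lineage. Irf4 lies apart from interferon signalling, since it is induced by IL-4 through STAT6 and is needed for alternative activation of macrophages.

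The sequences before the transcription start show which of these genes carry the letters of such signals close to their start. RefSeq windows (GRCm38.p6, from 250 bases before to 50 after the start) matched all 8 genes with 11 windows. Searched on both strands were the ISRE core GAAANNGAA, the STAT (GAS) element TTCNNNGAA and the longer STAT6 element, which has 4 free bases between its arms. Of all 32851 windows of this length, 8.56% held the ISRE core, 8.30% the GAS and 6.95% the STAT6 element. No 2 matches in the windows of IRF genes overlapped. The GAS was found in Irf1, at 90 bases before the start, in Irf2 and, at 2 places, in Irf8. The ISRE core was found in Irf2 only, and the STAT6 element 1 base after the start of Irf9. Irf3, Irf4, Irf5 and Irf7 held none of the 3, which says only that these letters are not in these windows. The only Irf5 window lay at chr6:29526375-29526674, around another start, so the Irf5 start given above was not searched. The 250 bases before the start are shown for the 3 genes with matches there and for Irf4 and Irf7, the genes with the widest changes described below, with matches in capitals. They lie at chr11:53769764-53770013 (+) for Irf1, chr8:46739495-46739744 (+) for Irf2, chr8:120736108-120736357 (+) for Irf8, chr13:30748983-30749232 (+) for Irf4 and chr7:141266425-141266674 (-) for Irf7.
Irf1: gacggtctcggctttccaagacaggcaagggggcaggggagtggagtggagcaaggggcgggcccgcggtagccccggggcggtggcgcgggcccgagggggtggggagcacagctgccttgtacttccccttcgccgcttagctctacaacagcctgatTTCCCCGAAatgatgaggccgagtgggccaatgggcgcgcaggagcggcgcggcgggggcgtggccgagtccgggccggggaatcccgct
Irf2: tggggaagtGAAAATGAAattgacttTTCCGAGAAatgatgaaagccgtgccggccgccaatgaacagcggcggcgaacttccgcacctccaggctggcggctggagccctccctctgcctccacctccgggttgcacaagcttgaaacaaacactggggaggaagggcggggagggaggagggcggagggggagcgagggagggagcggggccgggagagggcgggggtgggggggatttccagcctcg
Irf8: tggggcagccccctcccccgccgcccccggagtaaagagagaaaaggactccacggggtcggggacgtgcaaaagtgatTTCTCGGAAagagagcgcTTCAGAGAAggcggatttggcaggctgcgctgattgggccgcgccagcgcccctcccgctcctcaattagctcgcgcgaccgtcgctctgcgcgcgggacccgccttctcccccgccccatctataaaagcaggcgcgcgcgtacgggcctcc
Irf4: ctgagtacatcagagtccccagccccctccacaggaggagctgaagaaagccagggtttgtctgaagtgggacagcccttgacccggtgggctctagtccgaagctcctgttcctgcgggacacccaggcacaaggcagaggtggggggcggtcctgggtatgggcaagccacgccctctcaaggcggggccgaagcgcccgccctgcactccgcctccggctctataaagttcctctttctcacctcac
Irf7: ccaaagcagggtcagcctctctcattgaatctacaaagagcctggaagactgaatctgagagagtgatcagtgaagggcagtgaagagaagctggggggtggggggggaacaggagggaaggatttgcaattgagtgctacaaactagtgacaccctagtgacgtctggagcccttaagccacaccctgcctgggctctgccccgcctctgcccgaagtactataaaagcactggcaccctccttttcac

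Library depth ran from 7.02 to 22.5 M reads in the 5-strain table, from 5.70 to 24.0 M for the time course and from 4.69 to 32.9 M for the Egr2 set. The summed level of 6 macrophage markers was 3465 to 4563 TPM in the 5-strain libraries and in the same range or above in the other tables. Most of this sum in the 5-strain libraries was Cd68, which was also the largest part in the other tables. Csf1r, Itgam, Mertk and Fcgr1 varied more widely between the 5-strain libraries, and Mertk and Fcgr1 went under 1 TPM there. The sum therefore does not show even levels of each marker. B cell and plasma cell markers together stayed at or under 0.897 TPM and T and NK cell markers at or under 0.407 TPM, the cell types in which Irf4 is also well known. Fibroblast markers stayed at or under 2.36 TPM and conventional dendritic cell markers at or under 7.83 TPM. The plasmacytoid dendritic cell list, 270 to 2155 TPM, was carried by Bst2, an interferon-stimulated gene, with Siglech and Ccr9 under 1 TPM. The neutrophil genes S100a8 and S100a9 did differ by strain: the neutrophil list summed to 533 to 590 TPM in PWK and 244 to 395 TPM in SPRET libraries, against 14.5 to 130 TPM in the other 3 strains, with Ly6g under 1 TPM in every library. The list was also lower with IL-4 than at basal in C57 (16.3 to 24.0 against 106 to 130 TPM), BALB (17.4 to 19.2 against 52.4 to 59.0) and NOD (14.5 to 18.6 against 40.3 to 51.4). SPRET was lower with IL-4 as well (244 to 271 against 334 to 395 TPM), and PWK was not (537 to 590 against 533 to 539). The part of these genes in the strain and IL-4 differences below was not tested. In bulk samples, fewer cells of a type and less RNA per cell cannot be told apart.

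Irf4, which supports alternative activation, was the IRF gene that rose with 24 h of IL-4 in all 5 strains. In C57 it went from 0.759, 0.562 and 0.779 TPM to 5.12, 5.26 and 5.53 TPM, and in BALB from 3.78, 2.67 and 3.20 TPM to 8.83, 7.23 and 8.17 TPM. In NOD the levels were 3.35, 3.38 and 2.83 TPM before and 5.34, 5.79 and 5.96 TPM after IL-4. PWK had 0.266 and 0.311 TPM before and 1.17, 0.718 and 0.970 TPM after, and SPRET 0.044, 0.057 and 0.028 TPM before and 4.53, 5.26 and 5.08 TPM after. Basal and IL-4 libraries did not overlap in any strain, and every IL-4 library of PWK stayed under every basal library of BALB and NOD. With IL-4 the mean level was 7.58-fold that of basal for C57, 3.30-fold for PWK, 2.51-fold for BALB and 1.79-fold for NOD. SPRET basal cells were near zero, so no fold is given for them. On the log2(TPM + 1) scale used for all tests, which understates changes of low genes, the limma estimate was highest for SPRET (2.51 ± 0.10 SE, adjusted p = 6.55e-17) and C57 (1.89 ± 0.10, adjusted p = 3e-14). It was lower for BALB (1.11 ± 0.10, adjusted p = 1.98e-09), NOD (0.68 ± 0.10, adjusted p = 8.49e-06) and PWK (0.59 ± 0.11, adjusted p = 0.000193).

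A gene was called when its limma adjusted p was below 0.05 and its change above 1.5-fold on that scale. Over all genes tested, IL-4 called 5.0% up and 5.27% down in C57, 2.92% up and 3.81% down in BALB, and 2.88% up and 1.55% down in NOD. PWK had 4.12% up and 1.75% down, and SPRET 6.8% up and 4.27% down. Against this background, 8 of the 40 tests of an IRF gene in a strain were called, 5 up, all of them Irf4, and 3 down. Rescaling the libraries, by the median ratio of all genes or by quantile normalization, gave 6 calls, 3 up and 3 down. With either scaling the Irf4 calls in NOD and PWK and the Irf9 call in BALB were lost. A fall of Irf8 in SPRET was gained. With median ratios the Irf4 change fell under 1.5-fold in NOD (0.54) and PWK (0.56) while the adjusted p stayed below the threshold, and quantile normalization gave 0.50 and 0.55. With a pseudocount of 5 TPM in place of 1 the values were 0.39 in NOD and 0.17 in PWK. The PWK call was also lost without the first PWK IL-4 library (0.51), the third (0.58) or the first PWK basal library (0.57).

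Irf7, the amplifier of type I interferon production, was the most abundant IRF transcript in every strain but SPRET and fell with IL-4 where it was called. BALB cells went from 442, 444 and 422 TPM to 245, 251 and 228 TPM, a 1.81-fold fall (log2 difference -0.85 ± 0.06, adjusted p = 4.05e-11). C57 cells went from 584, 563 and 565 TPM to 434, 426 and 402 TPM, 1.36-fold lower (adjusted p = 2.29e-06), and PWK cells from 631 and 593 TPM to 502, 469 and 455 TPM, 1.29-fold lower (adjusted p = 0.000241). Only BALB passed the 1.5-fold limit. SPRET cells went from 36.3, 43.6 and 36.9 TPM to 34.3, 33.7 and 29.1 TPM (log2 difference -0.26 ± 0.06, adjusted p = 0.00119). NOD cells kept the highest levels, with 987, 1022 and 1019 TPM before and 952, 964 and 908 TPM after IL-4, a difference that did not pass the test (adjusted p = 0.209). Basal and IL-4 libraries did not overlap in any strain.

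Irf9, the DNA-binding subunit of ISGF3, was called down in BALB alone, from 32.0, 27.0 and 27.3 TPM to 20.1, 17.2 and 18.4 TPM (1.55-fold lower, log2 difference -0.60 ± 0.08, adjusted p = 1.91e-06). This call was near the 1.5-fold limit and was lost under median-ratio scaling (-0.46), quantile normalization (-0.54) and a pseudocount of 5 TPM (-0.52), and without the first BALB basal (-0.52) or the second BALB IL-4 library (-0.55). In the other 4 strains the Irf9 estimates lay between -0.16 and 0.15 and none passed the test.

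Irf1, the interferon-gamma-induced activator, moved in opposite directions by strain. NOD cells started from 94.1, 110 and 107 TPM and came down to 56.1, 57.04 and 57.7 TPM, 1.82-fold lower (log2 difference -0.85 ± 0.08, adjusted p = 5.6e-09). BALB cells also fell, from 54.7, 48.1 and 47.9 TPM to 41.6, 38.7 and 37.4 TPM, by less than 1.5-fold (adjusted p = 0.00103). In contrast, SPRET cells rose from 19.1, 21.2 and 19.9 TPM to 26.8, 28.0 and 26.3 TPM (1.35-fold, adjusted p = 9.16e-05) and C57 cells from 35.7, 41.7 and 33.2 TPM to 46.5, 46.1 and 41.8 TPM (1.22-fold, adjusted p = 0.00544). PWK did not pass the test (0.13 ± 0.09, adjusted p = 0.302). Basal and IL-4 libraries of Irf1 did not overlap in any strain.

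The remaining genes changed by less than 1.5-fold everywhere. Irf8 fell in SPRET from 50.1, 50.4 and 53.5 TPM to 37.4, 36.1 and 37.2 TPM (1.39-fold, log2 difference -0.46 ± 0.05, adjusted p = 3.09e-08), and this change was past 1.5-fold after median-ratio scaling (-0.61) or quantile normalization (-0.62). Irf5 rose slightly in BALB (0.23 ± 0.06, adjusted p = 0.00232) and NOD (0.30 ± 0.06, adjusted p = 0.000171) and fell slightly in SPRET (-0.18 ± 0.06, adjusted p = 0.00953). Irf3 passed the test in NOD only (0.24 ± 0.08, adjusted p = 0.0214), and Irf2 in no strain.

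**Figure D1:**
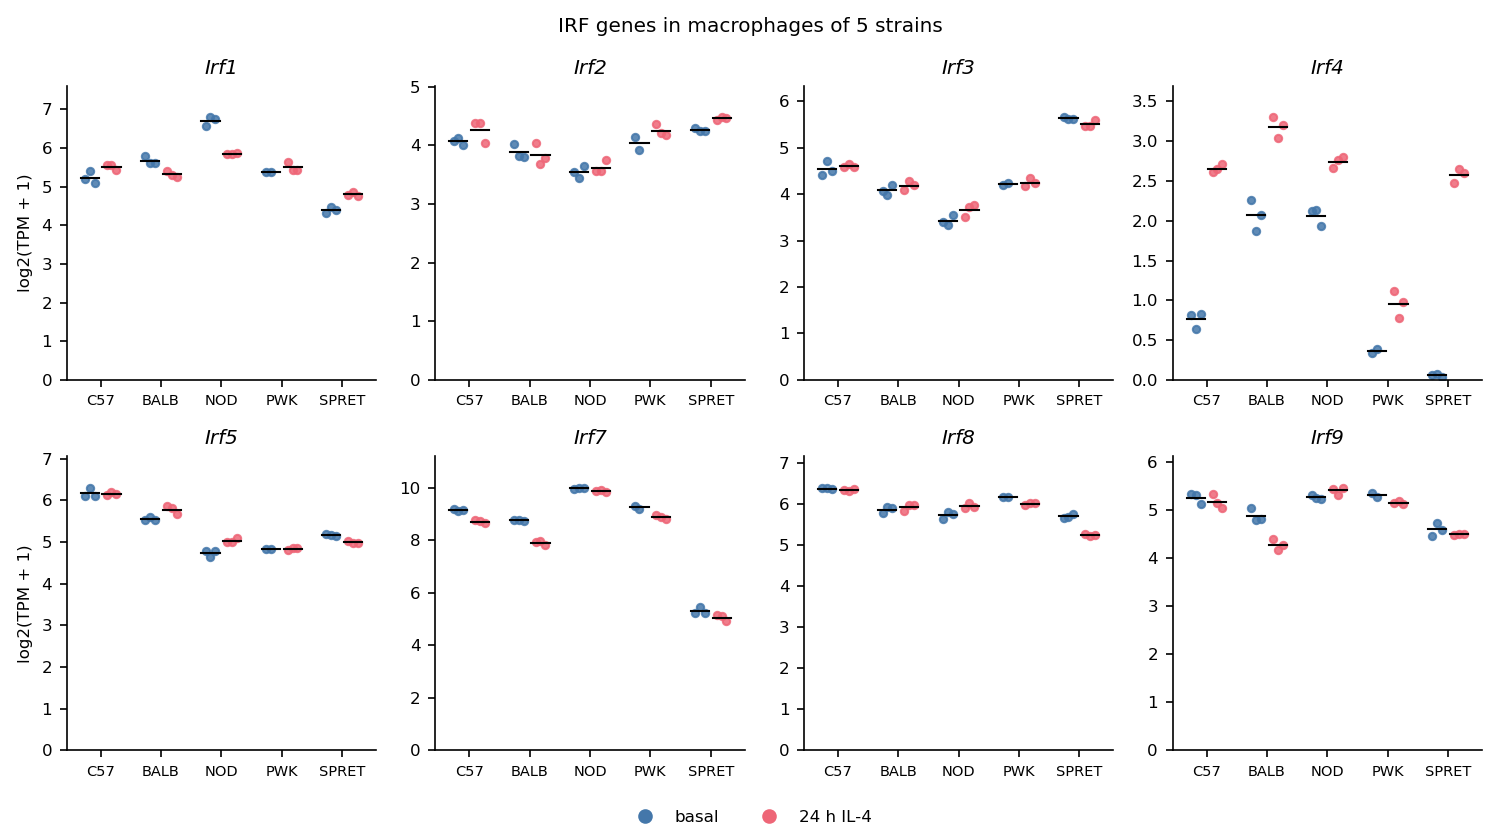
Level of each IRF gene, as log2(TPM + 1), in every library of the 5 strains. Blue points are basal and red points 24 h IL-4 libraries, and black lines are group means. Irf4 sits higher after IL-4 in each strain, and Irf7 in SPRET lies far under the other strains in both conditions.

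Whether the strains responded differently was tested directly, as the difference of each strain's response from that of C57. These 4 comparisons share the C57 libraries. Of 32 such tests on IRF genes 6 were called, 1 up and 5 down, against 9.54% of all tests. The Irf4 response exceeded that of C57 in SPRET (0.62 ± 0.14, adjusted p = 0.00117). It fell short of C57 in PWK (-1.30 ± 0.15, adjusted p = 3.58e-07), NOD (-1.21 ± 0.14, adjusted p = 3.15e-07) and BALB (-0.78 ± 0.14, adjusted p = 0.00027). With a pseudocount of 5 TPM 3 of these 4 calls were lost, with 0.13 for SPRET (adjusted p = 0.148), -0.18 for BALB (adjusted p = 0.0652) and -0.47 for NOD (adjusted p = 9.6e-06). The SPRET difference was also under 1.5-fold with either other scaling (0.40 each) and without the second SPRET IL-4 library (0.58). The Irf1 response was lower than in C57 in BALB (-0.63 ± 0.11, adjusted p = 0.000206) and NOD (-1.13 ± 0.11, adjusted p = 2.02e-08). For BALB the Irf1 difference went under 1.5-fold with median-ratio scaling (-0.54), with a pseudocount of 5 TPM (-0.57) and without the first BALB basal or the third C57 basal library (-0.56 each). Irf7 differed in BALB (-0.41 ± 0.09, adjusted p = 0.0015) and NOD (0.34 ± 0.09, adjusted p = 0.00419) by less than 1.5-fold.

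Before any IL-4 the strains already stood apart. Among the 10 pairs of strains, 40 of 80 tests on IRF genes were called, 12 up and 28 down, where 36.4% of all tests were. After IL-4 the count was 42 of 80, 13 up and 29 down, against 34.4%. The direction is set by the order in which strains are subtracted, and pairs of strains share libraries.

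Irf7 spanned the widest range of basal means after Irf4. Basal means ran from NOD (1009 ± 19.2 TPM, SD, n = 3) through PWK (612 ± 26.9, n = 2), C57 (571 ± 11.2, n = 3) and BALB (436 ± 11.96, n = 3) to SPRET (38.9 ± 4.03, n = 3). Of the neighbours in that order, only PWK and C57 did not pass the test (adjusted p = 0.212). SPRET was 14.7-fold under C57 (log2 difference -3.84 ± 0.06, adjusted p = 1.25e-25) and NOD 1.77-fold above C57 (0.82 ± 0.06, adjusted p = 1.01e-11). With IL-4 the order of the means was the same, and SPRET stood 13.0-fold under C57.

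Irf1 had the same strains at both ends at basal, highest in NOD (103 ± 8.24 TPM), 2.81-fold above C57 (1.47 ± 0.08, adjusted p = 9.83e-15), and lowest in SPRET (20.1 ± 1.06 TPM), 1.84-fold under C57 (-0.84 ± 0.08, adjusted p = 4.21e-10). PWK against C57 did not pass the test (adjusted p = 0.168). After IL-4 the range narrowed, so that NOD stood 2.11-fold above SPRET where it had stood 5.16-fold above at basal. Irf9 was at 21.1 to 25.9 TPM in SPRET, 1.61-fold under C57 (-0.66 ± 0.08, adjusted p = 6.66e-08), while no difference passed the test among the 3 highest strains, PWK, NOD and C57 (adjusted p = 0.621 for PWK against NOD and 0.97 for NOD against C57).

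Irf3, the constitutively expressed interferon activator, ran the other way. SPRET basal libraries held 49.1, 48.3 and 47.8 TPM, C57 20.4, 25.0 and 21.5 TPM, and NOD 9.54, 9.11 and 10.7 TPM. SPRET was 2.17-fold above C57 (1.09 ± 0.08, adjusted p = 4.99e-12) and 4.95-fold above NOD, and NOD was 2.28-fold under C57 (-1.11 ± 0.08, adjusted p = 3.89e-12). PWK and BALB lay between, and their difference did not pass the test (adjusted p = 0.181). Thus SPRET combined the highest Irf3 with the lowest Irf7 of the 5 strains, and NOD the reverse.

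Irf5 was highest in C57, with 67.5, 77.7 and 68.0 TPM at basal. It was 1.55-fold lower in BALB, 2.03-fold in SPRET, 2.58-fold in PWK and 2.77-fold in NOD, where it held 26.4, 24.0 and 26.5 TPM (-1.43 ± 0.06, adjusted p = 2.95e-17). All 4 differences from C57 were called, and PWK against NOD did not pass the test (adjusted p = 0.165). Irf8, the lineage factor, was also highest in C57, at 81.1 to 83.2 TPM, and 1.60-fold lower in SPRET (-0.67 ± 0.05, adjusted p = 9.49e-12). In NOD it was 1.56-fold lower (-0.64 ± 0.05), but the median of all genes in that comparison was -0.30, and rescaling took Irf8 under 1.5-fold (-0.24 with median-ratio scaling and -0.52 with quantile normalization). After IL-4 the gap of SPRET to C57 in Irf8 was 2.16-fold (-1.09 ± 0.05, adjusted p = 4.13e-16). Irf2, the repressor, had a called basal difference only between SPRET and NOD (1.70-fold, 0.72 ± 0.10, adjusted p = 2.32e-07), which was under 1.5-fold after rescaling (0.31 and 0.37).

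Basal Irf4 differed by strain as well in the 5-strain set, at 3.22 ± 0.557 TPM in BALB and 3.18 ± 0.311 TPM in NOD (adjusted p = 0.968), then at 0.700 ± 0.120 TPM in C57, 0.289 ± 0.0318 TPM in PWK and 0.0430 ± 0.0145 TPM in SPRET. With median-ratio scaling NOD came out above BALB (0.35, adjusted p = 0.00168). After IL-4 in this experiment, NOD against C57 gave an adjusted p of 0.447 and SPRET against C57 one of 0.454, with intervals of the difference that stay within 1.5-fold (-0.11 to 0.29 and -0.28 to 0.12). The time course described below went another way for SPRET, with 74.3 and 60.4 TPM at 24 h against 9.75 and 8.58 TPM in C57 (2.74 ± 0.11, adjusted p = 5.4e-10). In the 5-strain set BALB was then highest and PWK lowest, 5.56-fold under C57 (-1.70 ± 0.10, adjusted p = 8.68e-14).

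These patterns can be put as shares of the variance over the 29 libraries. Strain accounted for 97.8% of the variance of Irf7, 97.7% of Irf3 and 95.6% of Irf5. For Irf4 it accounted for 42.8%, with 44.1% from IL-4 and 12.4% from the part of the IL-4 effect that differed by strain. That last share was 15.5% for Irf1, 13.1% for Irf8 and 10.4% for Irf9, in each case above the share of IL-4 itself (0.483%, 1.30% and 4.39%). Irf2 had the largest residual share, 10.5%. These shares describe the libraries and carry no test.

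The time course showed how soon the genes moved. It was scaled in a separate table, so levels are compared within it only. Of 48 tests of an IRF gene against its basal level 14 were called, 10 up and 4 down, against 9.34% of all tests, and 6 of the 10 were Irf4. In C57 cells Irf4 went from 0.949 and 0.643 TPM to 9.87 and 9.93 TPM within 1 h, stood at 14.7 and 14.1 TPM at 6 h and at 9.75 and 8.58 TPM at 24 h. In SPRET cells it went from 0.636 and 0.820 TPM to 19.8 and 20.2 TPM at 1 h, 61.7 and 55.1 TPM at 6 h and 74.3 and 60.4 TPM at 24 h. The basal libraries of the strains overlapped (-0.05 ± 0.11, adjusted p = 0.715), and after IL-4 every SPRET library lay above every C57 library of the same time. From 6 to 24 h C57 fell back (-0.60 ± 0.11, adjusted p = 0.00155, and under 1.5-fold with a pseudocount of 5 TPM, with either other scaling and without the second 24 h or the first 6 h library, from -0.45 to -0.57), and the SPRET change over that time did not pass the test (0.20 ± 0.11, adjusted p = 0.255). The rise over basal was 12.4-fold, 18.1-fold and 11.5-fold in C57 at 1, 6 and 24 h and 27.5-fold, 80.2-fold and 92.5-fold in SPRET.

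The difference between the responses of SPRET and C57 was called in 8 of 24 tests on IRF genes, 6 up and 2 down, against 7.88% of all tests. It was 1.00 ± 0.16 for Irf4 at 1 h (adjusted p = 0.00462), 2.00 ± 0.16 at 6 h (adjusted p = 9.74e-06) and 2.80 ± 0.16 at 24 h (adjusted p = 1.95e-07). The 3 times share the basal libraries.

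Irf1 rose early in SPRET and came back. SPRET levels were 36.7 and 35.6 TPM at basal, 68.2 and 68.3 TPM at 1 h, 102 and 104 TPM at 6 h, and 47.8 and 40.5 TPM at 24 h, so that the 6 h level was 2.86-fold above basal (1.49 ± 0.08, adjusted p = 2.47e-08). C57 levels climbed slowly instead, from 39.0 and 42.3 TPM to 46.2 and 50.8, 48.8 and 52.3, and 58.2 and 62.7 TPM (24 h against basal 0.56 ± 0.08, adjusted p = 0.000116, just under the 1.5-fold limit). The SPRET response was larger than that of C57 at 1 h (0.65 ± 0.11, adjusted p = 0.00703, and 0.58 without the first C57 1 h library) and 6 h (1.18 ± 0.11, adjusted p = 2.85e-05), and at 24 h the difference did not pass the test (-0.29 ± 0.11, adjusted p = 0.0752).

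Irf2 rose early too, and was back near basal by 6 h in SPRET only. SPRET cells went from 50.6 and 52.5 TPM to 83.7 and 88.3 TPM at 1 h (1.67-fold, 0.73 ± 0.06, adjusted p = 1.91e-06) and were at 53.3 and 55.5 TPM at 6 h. C57 cells went from 29.6 and 31.6 TPM to 42.4 and 43.8 TPM at 1 h (1.41-fold, adjusted p = 0.000172), and the difference between the responses at 1 h did not pass the test (0.25 ± 0.08, adjusted p = 0.193). C57 cells were still at 38.7 and 40.8 TPM at 6 h and stood at 26.8 and 28.0 TPM at 24 h.

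Irf7 in C57 stayed at 131 to 176 TPM until 6 h and was at 64.7 and 71.3 TPM at 24 h, 2.06-fold under basal (-1.03 ± 0.12, adjusted p = 1.7e-05). In SPRET, 7.90 and 9.21 TPM at basal became 16.6 and 16.7 TPM at 1 h (1.94-fold, 0.89 ± 0.12, adjusted p = 0.000216) and 11.3 and 8.98 TPM at 24 h. The response at 24 h differed between the strains (1.25 ± 0.16, adjusted p = 0.00012). SPRET held 16.4-fold less Irf7 than C57 at basal (-3.89 ± 0.12, adjusted p = 3.5e-11).

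Irf8 fell in SPRET within 1 h, from 75.4 and 74.3 TPM to 39.5 and 43.9 TPM (1.79-fold, -0.83 ± 0.07, adjusted p = 2.47e-06), stood higher again at 6 h with 57.3 and 53.6 TPM (0.40 ± 0.07 over 1 h, adjusted p = 0.000597), and was at 39.3 and 40.0 TPM at 24 h (1.89-fold under basal, -0.90 ± 0.07, adjusted p = 3.91e-07). C57 fell from 84.5 and 85.5 TPM to 63.5 and 64.4 TPM at 1 h by less than 1.5-fold (-0.41 ± 0.07, adjusted p = 0.00258), and the 24 h responses of the strains differed (-0.68 ± 0.09, adjusted p = 0.000182). Irf9 showed a difference of the same size at 24 h (-0.68 ± 0.10, adjusted p = 0.000357), with 20.4 and 18.1 TPM in SPRET against 27.2 and 28.6 TPM at basal, while C57 stayed at 34.5 to 43.2 TPM throughout. Irf5 in C57 was at 127 to 143 TPM until 6 h and at 85.2 and 86.6 TPM at 24 h (1.52-fold under basal, -0.60 ± 0.06, adjusted p = 1.15e-05, -0.58 with a pseudocount of 5 TPM and -0.56 without the second C57 basal library). Irf3 passed the test at no time in either strain.

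**Figure D2:**
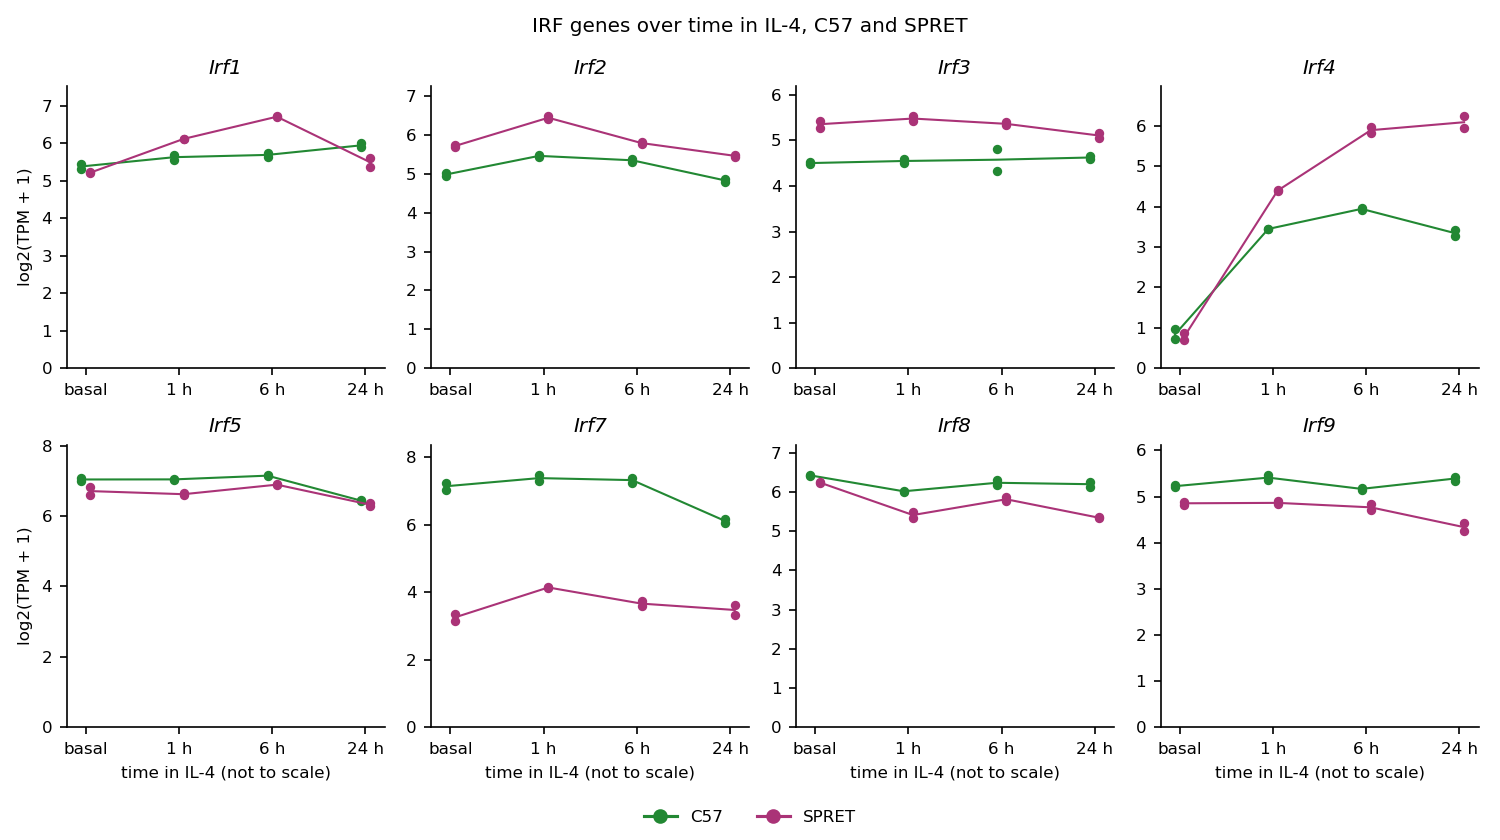
Level of each IRF gene, as log2(TPM + 1), at basal and at 1, 6 and 24 h in IL-4, with C57 in green and SPRET in purple. Points are libraries (2 a group) and lines join the group means. Irf4 parts between the strains after IL-4, and Irf1 and Irf2 in SPRET peak at 6 h and 1 h.

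In the knockout experiment, Egr2 itself was first read in every library. Egr2WT cells held 21.3 to 23.6 TPM at basal and 75.6 to 101 TPM after IL-4, and Egr2MKO cells 0.854 to 0.859 TPM and 3.10 to 7.05 TPM, as the labels state. The question was whether IRF genes depended on this late factor. Egr2MKO differed from Egr2WT in 12 of 32 tests on IRF genes, 10 up and 2 down, against 6.34% of all tests. The 2 falls were Irf4 and the 10 rises were Irf7 (4), Irf1 (3), Irf9 (2) and Irf2 (1). Irf3, Irf5 and Irf8 had no call in either direction.

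Irf7 showed the largest difference. Egr2WT libraries held 110 and 109 TPM at basal, 108 and 103 TPM at 1 h, 111 and 111 TPM at 6 h, and 32.8 and 26.3 TPM at 24 h. Egr2MKO libraries held 250 and 249, 274 and 295, 303 and 299, and 208 and 212 TPM at the same times. Egr2MKO was above Egr2WT in every library, by 2.28-fold at basal (1.18 ± 0.08, adjusted p = 1.36e-06) and by 7.12-fold at 24 h (2.80 ± 0.08, adjusted p = 2.25e-10). The genotypes thus already differed before IL-4. At 24 h Irf7 had fallen 3.72-fold in Egr2WT (-1.87 ± 0.08, adjusted p = 3.3e-09) and 1.19-fold in Egr2MKO (-0.25 ± 0.08, adjusted p = 0.0276), and this response differed between the genotypes by 1.62 ± 0.11 (adjusted p = 3.34e-06).

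Irf9 and Irf1 differed from Egr2WT in the same direction. Irf9 went from 35.6 and 40.8 TPM at basal to 23.8 and 23.1 TPM at 24 h in Egr2WT (1.63-fold lower, -0.68 ± 0.08, adjusted p = 3.48e-05, and -0.58 without the second basal library) and from 49.1 and 51.4 TPM to 48.7 and 47.5 TPM in Egr2MKO. Egr2MKO was 2.05-fold above Egr2WT at 24 h (1.01 ± 0.08, adjusted p = 1.2e-06), and the difference in response was 0.62 ± 0.11 (adjusted p = 0.00343), but 0.50 and 0.52 under the other scalings, 0.54 with a pseudocount of 5 TPM, 0.52 without the second Egr2WT basal and 0.58 without the first Egr2MKO basal library. Irf1 was at 29.6 and 29.1 TPM at basal, 51.8 and 45.1 TPM at 6 h and 33.2 and 28.9 TPM at 24 h in Egr2WT, a rise and return. In Egr2MKO it went from 39.1 and 41.3 TPM to 77.2 and 84.2 TPM at 6 h and stayed at 72.6 and 66.3 TPM at 24 h. The 24 h level was 2.24-fold above Egr2WT (1.14 ± 0.08, adjusted p = 4.98e-07), and the 24 h response differed by 0.70 ± 0.12 (adjusted p = 0.00181), or by 0.58 under median-ratio scaling, where it was no longer called.

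Irf4 rose in both genotypes, and less in Egr2MKO at the later times. Egr2WT levels were 1.52 and 1.74 TPM at basal, 10.2 and 9.66 TPM at 1 h, 28.0 and 30.1 TPM at 6 h and 18.2 and 18.4 TPM at 24 h. Egr2MKO levels were 1.25 and 0.731 TPM at basal, 6.33 and 6.68 TPM at 1 h, 10.2 and 11.4 TPM at 6 h and 6.31 and 7.17 TPM at 24 h. Every Egr2MKO library lay under every Egr2WT library of the same time, 2.69-fold at 6 h (-1.35 ± 0.12, adjusted p = 1.46e-05) and 2.71-fold at 24 h (-1.32 ± 0.12, adjusted p = 5.27e-06), with a basal difference that just missed the test (-0.41 ± 0.12, adjusted p = 0.051, and -0.71 with adjusted p = 0.0278 at a pseudocount of 0.1 TPM). The difference in response was not called at 1 h (-0.13 ± 0.17), and was -0.94 ± 0.17 at 6 h (adjusted p = 0.0272) and -0.90 ± 0.17 at 24 h (adjusted p = 0.00482). These last 2 values depended on the basal libraries, where Irf4 is near 1 TPM: with a pseudocount of 0.1 TPM both became -0.72 (adjusted p = 0.29 and 0.0989). At 6 h the call was also lost with no filter (adjusted p = 0.0619), with only the groups compared in the fit (0.255), and without any of 5 single libraries (adjusted p from 0.055 to 0.113), namely either Egr2WT basal, either Egr2WT 6 h or the first Egr2MKO basal library.

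Of the other members, Irf2 was 1.55-fold higher in Egr2MKO at 24 h (0.62 ± 0.12, adjusted p = 0.00131), though under 1.5-fold after rescaling (0.49 and 0.50), with a pseudocount of 5 TPM (0.57) and without the second Egr2WT 24 h library (0.54). Irf8 was higher by less than 1.5-fold at 24 h (0.38 ± 0.06, adjusted p = 0.00028), as was Irf3 (0.38 ± 0.09, adjusted p = 0.00677). Irf5 differed by at most 0.16 on the log2 scale. Within the genotypes, 12 of 48 tests of IRF genes against basal were called, 10 up and 2 down, against 7.36% of all tests, and the difference in response was called in 5 of 24 tests, 3 up and 2 down, against 2.09%.

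**Figure D3:**
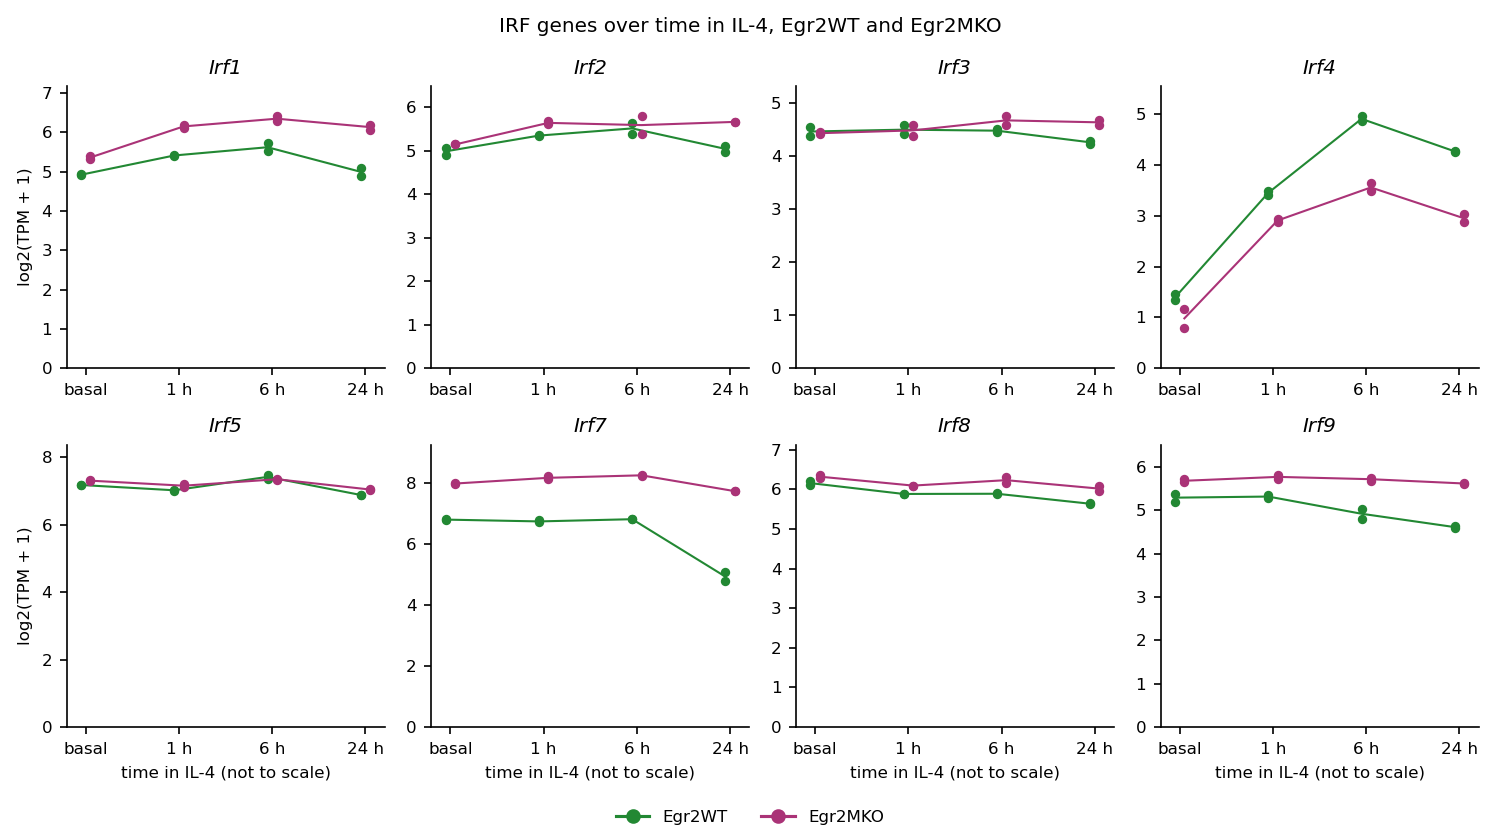
Level of each IRF gene, as log2(TPM + 1), at basal and at 1, 6 and 24 h in IL-4, with Egr2WT in green and Egr2MKO in purple. Points are libraries (2 a group) and lines join the group means. Irf7 falls at 24 h in Egr2WT, and Egr2MKO lies above it for Irf1, Irf7 and Irf9 and under it for Irf4.

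The 24 h responses of all 3 experiments can be set side by side, since each has its own basal libraries. Irf4 rose in each of the 9 responses. Its widest gap between experiments was in SPRET, with 2.51 in the 5-strain set and 5.30 in the time course, and the response of SPRET minus that of C57 was 0.62 and 2.80. Basal Irf4 of SPRET was under that of C57 in the 5-strain set (-0.70 ± 0.10, adjusted p = 6.72e-07), where the time course gave -0.05. Irf7 changed by -0.44 in C57 of the 5-strain set, -1.03 in C57 of the time course and -1.87 in Egr2WT, and by -0.25 in Egr2MKO. In SPRET its sign differed, with -0.26 in the 5-strain set and 0.22 in the time course, where it did not pass the test (adjusted p = 0.167). For SPRET, Irf9 was -0.10 in the first set and -0.52 in the time course, and Irf8 -0.46 and -0.90. Irf5 of C57 had means of 71.1 TPM at basal and 70.6 TPM with IL-4 in the 5-strain set. In the time course these were 131 and 85.9 TPM, so the called fall there was not seen in the first set. The estimated size of a response at 24 h thus varied between experiments on the same strain. For Irf7 of SPRET a change of direction is not shown, since the time course estimate did not pass the test. No test compared the experiments, and they differ in ways the labels do not give.

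**Figure D4:**
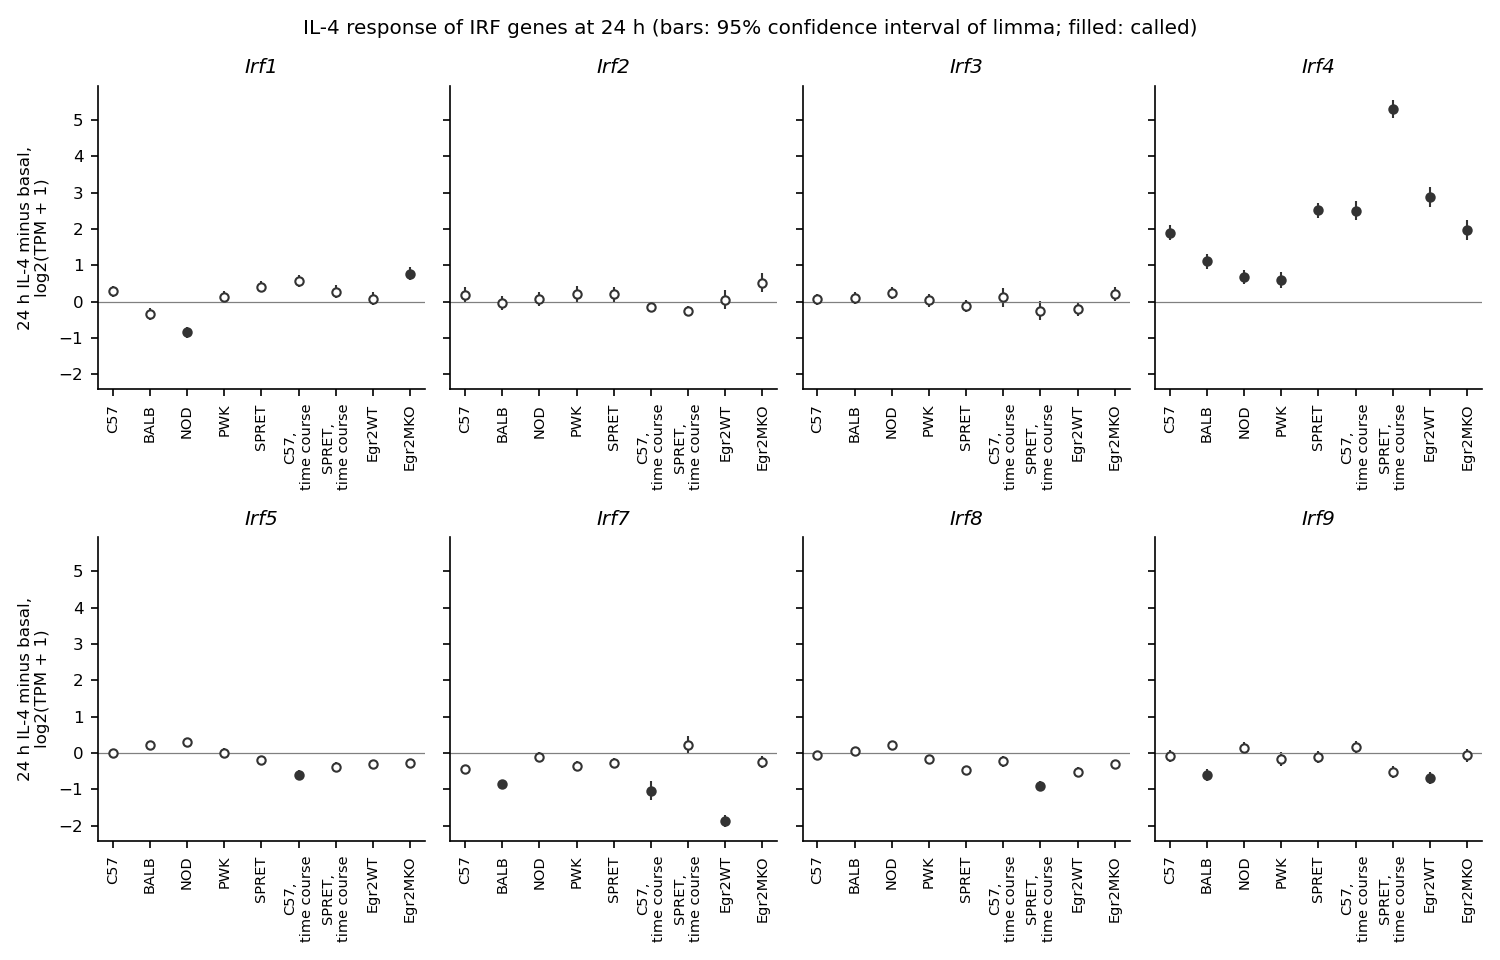
IL-4 response of each IRF gene at 24 h, as the difference of log2(TPM + 1) from basal, in the 5 strains, the time course and the Egr2 genotypes. Points are limma estimates, bars their 95% confidence intervals, and filled points are called. Irf4 lies above 0 in all 9 responses, and Irf7 below 0 most clearly in BALB, C57 of the time course and Egr2WT.

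The genes around the family were described through lists of their known inputs and targets. Of 21 targets of ISGF3 and IRF7, which are antiviral genes, 13 fell with IL-4 in BALB (median log2 difference -0.82 against -0.11 for all genes), 6 in C57 (-0.38 against -0.04), 1 each in NOD and SPRET and none in PWK, and none rose. The share of all genes called down was given above, 3.81% in BALB and 5.27% in C57. Ifit3, which binds viral RNA complexes, had mean levels of 56.0 TPM at basal and 17.7 TPM after IL-4 in C57 (-1.61) and of 13.9 and 2.44 TPM in BALB (-2.09). Cxcl10, a chemokine, went from 9.41 to 2.91 TPM in C57 (-1.42) and from 167 to 57.6 TPM in NOD (-1.52). In the 5-strain set BALB was thus the strain with the called falls of Irf7 and Irf9 and with the largest count of their targets down. The Irf9 call was lost with rescaling, as given above, and a link between the falls of factors and targets was not tested.

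The same list separated the strains at basal. In SPRET 18 of 21 targets were lower than in C57, as were 16.9% of all genes, and none higher (median -3.07, against 0.02 for all genes), among them Rsad2 (-5.30), Ifit3 (-4.76) and Isg15 (-4.54). In NOD 16 were higher than in C57, against 10.3% of all genes, and none lower (median 0.99, against -0.30 for all genes). In BALB 14 were lower and 2 higher than in C57 (median -0.80), where 6.08% of all genes were lower and 7.01% higher. In PWK 5 were lower and 4 higher (median -0.24), where 20.5% of all genes were lower and 9.23% higher. In Egr2MKO 14 were higher than in Egr2WT at basal (median 0.94), 18 at 1 h, 16 at 6 h and 19 at 24 h (median 1.55, against 0.12 for all genes), with none lower. Of all genes, 1.4%, 1.58%, 2.86% and 7.44% were called up at these times. At 24 h Ifit3 was at 17.0 TPM in Egr2MKO and 1.62 TPM in Egr2WT (2.78), Ifit1 at 31.6 and 5.13 TPM (2.43) and Oas2 at 26.9 and 5.05 TPM (2.20). Against basal, 16 of 21 fell and 1 rose at 24 h in Egr2WT (median -1.11) and 4 fell in Egr2MKO (median -0.35), and the response differed in 11, all higher in Egr2MKO. The shares of all genes were 6.41% down and 5.11% up in Egr2WT, 5.46% down in Egr2MKO and 3.87% with a higher response. In the C57 time course 12 fell and 1 rose at 24 h (8.78% and 7.06% of all genes), and in SPRET 2 fell and 2 rose (8.8% and 6.21%).

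Among 8 genes of interferon receptors, their kinases and ISGF3, IL-4 raised 1 in C57, Ifngr1 (67.5 to 125 TPM), 2 in PWK and 2 in SPRET, where 5.0%, 4.12% and 6.8% of all genes rose. None was called in BALB or NOD, and none fell in any strain. At 24 h 2 of the 8 were higher in Egr2MKO, where 7.44% of all genes were, Stat2 (59.7 against 25.2 TPM) and Jak2 (0.76 on the log2 scale). Of 18 sensors and kinases that activate IRFs, 3 fell and 1 rose in C57, 3 fell in BALB, 1 rose in PWK, 1 fell and 1 rose in SPRET, and none was called in NOD, where 5.27%, 3.81%, 1.75%, 4.27% and 1.55% of all genes fell in C57, BALB, PWK, SPRET and NOD. In Egr2MKO at 24 h 7 of the 18 were higher, Ddx58, a sensor of viral RNA, among them (1.20). Ikbke, a kinase of Irf3 and Irf7, fell in C57 (-0.71) and BALB (-0.73), and Tlr4 rose in C57 (0.62), PWK (1.25) and SPRET (0.64). Of 15 targets of Irf1 and Irf8, 4 fell and 1 rose in BALB, 2 fell and 1 rose in C57, 2 fell in NOD, 1 fell in PWK, and 1 fell and 2 rose in SPRET. In the Egr2 set 14 of the 15 were tested, and 6 were higher in Egr2MKO at 24 h, against the 7.44% of all genes, including Irgm1 (1.40) and Ciita (1.18). Among these, Psmb10, an immunoproteasome subunit, rose in C57 (0.80), BALB (0.77) and SPRET (1.64), and Cybb, a subunit of the phagocyte oxidase, fell in C57 (-1.17), BALB (-0.99), NOD (-0.60) and SPRET (-0.78).

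Irf4 and Irf8 bind DNA together with partners, and 8 of 9 genes on a list of partners and corepressors were tested in the strains. IL-4 raised 2 of the 8 in C57, 2 in BALB and 1 each in NOD, PWK and SPRET, and 1 fell in SPRET. Of all genes, 5.0%, 2.92%, 2.88%, 4.12% and 6.8% rose in these strains in that order, and 4.27% fell in SPRET. Batf3, a partner of both, rose in all 5 strains, from 3.71 to 23.5 TPM in C57 (2.38) and from 1.85 to 23.3 TPM in SPRET (3.09), with smaller rises in PWK (1.34), BALB (1.16) and NOD (0.79). Batf rose in C57 from 10.1 to 27.9 TPM (1.38). Of 6 genes of the IL-4 to Irf4 axis, Socs1, the feedback inhibitor of cytokine receptors, went from 2.17 to 22.3 TPM in C57 (2.91) and from 0.279 to 65.8 TPM in SPRET (5.70). In Egr2MKO at 24 h Il4ra, the IL-4 receptor, was higher than in Egr2WT (1.21), as were Socs1 (0.78) and Jak3 (0.67), while Irf4 was lower.

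Genes most like each member were taken by the correlation of log2(TPM + 1) over the 29 libraries of the 5 strains. These libraries fall into 10 groups, so the values describe shared group differences. Irf7 was closest to Tap1, the peptide transporter of antigen presentation (r = 0.991), Sp100 (0.990) and Zbp1, a nucleic acid sensor (0.989), and over the 16 libraries of the time course these reached 0.979, 0.927 and 0.949, and over the 16 of the Egr2 set they reached 0.946, 0.923 and 0.934. Irf9 was closest to Rtp4 (0.939, then 0.912 and 0.971) and Ly6e (0.932, then 0.812 and 0.932). Irf4 was like Dnase2a (0.928), Tmem202 (0.920) and Egr2 (0.893), and in the other tables Egr2 gave 0.732 and 0.655 where Dnase2a gave -0.153 and 0.474. Irf1 was like Gbp5 (0.941), for which r was 0.0647 over the time course and 0.842 over the Egr2 set. Irf3 was like Aurkaip1 (0.981), Irf5 like Samhd1 (0.965), Irf2 like Spop (0.940) and Irf8 like Thap3 (0.903). Within the family, Irf7 and Irf9 gave correlations of 0.765, 0.834 and 0.937 over the 3 tables, and Irf1 and Irf7 0.827, -0.21 and 0.742.

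F1 hybrids place both parental alleles in the same cells, so that a difference kept between alleles there lies in cis to the gene. Their values are scores weighted by reads that overlap variants and cannot be set beside TPM levels, and no test was made on 2 libraries. The scores of C57 and SPRET alleles were listed with whole-gene lengths, 8038 bases for Irf5 against 2231 for the parents. Whether these scores count exons alone, as the parental TPM do, is not given. Ratios were taken after 1 was added to each score, which draws ratios of low scores toward 0 on the log2 scale. Irf7 of C57 and SPRET gave 25.0 and 24.6 for the C57 and SPRET alleles in one basal library and 39.4 and 32.3 in the other, and 7.37 and 5.71, and 11.99 and 6.30, with IL-4. The mean log2 ratio of the alleles was 0.15 at basal and 0.57 with IL-4, where the parental strains differed by 3.84 and 3.66. Irf9 alleles had ratios of -0.10 and -0.06, against 0.66 and 0.68 between the parents.

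For Irf5 the C57 allele was higher in all 4 libraries (0.41 at basal and 0.88 with IL-4, against 0.99 and 1.17 in the parents), and likewise for Irf8 (0.30 and 0.69, against 0.67 and 1.09). For Irf3 the SPRET allele was higher in all 4 libraries (-0.57 and -0.33, against -1.09 and -0.91). Irf5 and Irf8 with IL-4 were the only 2 of 16 mean ratios past 1.5-fold with 1 added. With 0.1 added in place of 1, Irf7 with IL-4 also was (0.64). Irf4 rose from both alleles, from 8.87 and 6.15 and from 6.95 and 7.18 at basal to 44.8 and 50.7 and to 48.5 and 43.3 with IL-4, and neither allele led in both libraries of either condition. Irf1 gave ratios of 0.15 and 0.36 (parents 0.84 and 0.71) and Irf2 of 0.06 and 0.22 (parents -0.19 and -0.19).

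In the hybrids of C57 and NOD only Irf1 had values, with 11.4 and 11.97 for the C57 and NOD alleles in one basal library and 3.78 and 3.95 in the other. With IL-4 they were 4.15 and 4.34, and 3.65 and 3.79. The mean log2 ratio was -0.06 at basal and -0.05 with IL-4, against -1.47 and -0.34 between the parents. In single libraries the ratio ran only from -0.064 to -0.043, while the scores ran from 3.65 to 11.97. Whether these scores separate the C57 and NOD alleles of Irf1 was not tested. The other 7 genes were listed at 0 in all columns, as were 75.5% of the genes of that table, so the Irf3, Irf5 and Irf7 differences of NOD could not be read by allele.

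**Figure D5:**
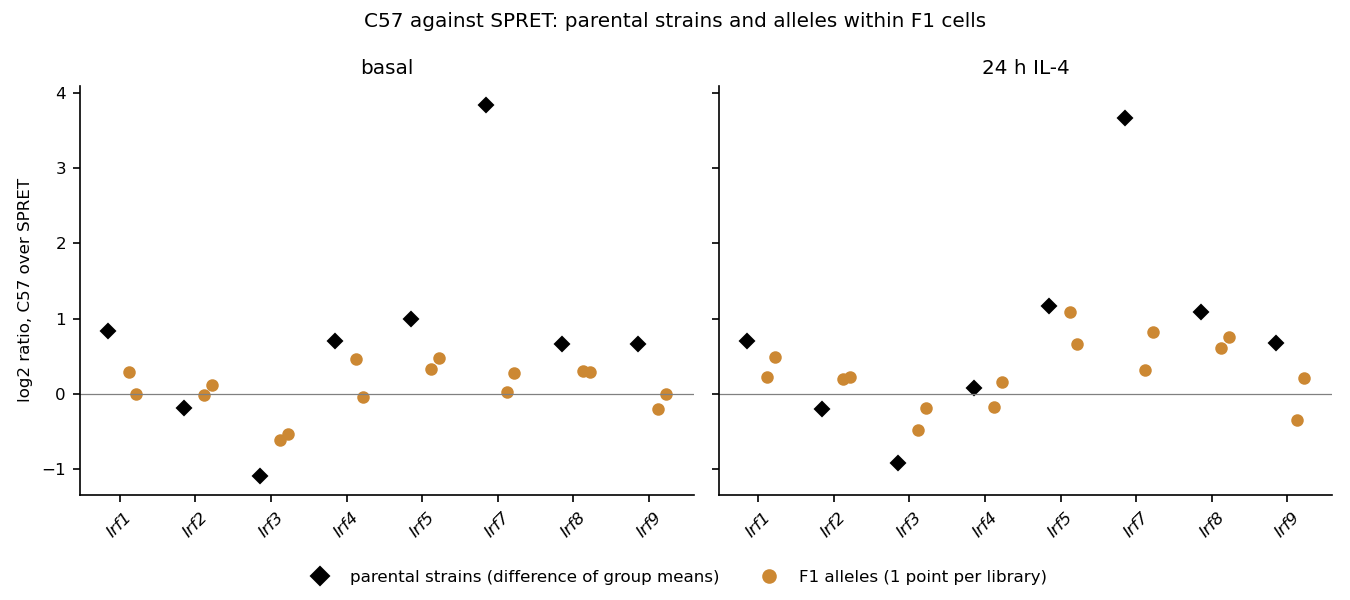
Log2 ratio of the C57 to the SPRET allele of each IRF gene in F1 hybrids, in each library, beside the difference between the parental strains. Irf7 ratios run from 0.026 to 0.83 where the parents differ by over 3. Irf1, Irf3, Irf5, Irf7 and Irf8 keep the parental direction in all 4 libraries, Irf1 by only 0.0023 in 1 of them.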

How the data were processed

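RNA-seq libraries of mouse BMDMs, 69 in all, were grouped by their labels. The single-end poly(A) reads were mapped by the authors with STAR to the genome of each strain, and positions were moved to mm10. The deposited TPM values, scaled to transcript length and depth, were made by the authors with HOMER over exons. Whether counting used strand is not given in the sources used here. The F1 values were deposited by the authors as a score: gene counts weighted by the ratio of reads that overlap strain variants, so no TPM and no read depth follow from them. Columns of the authors' own fold changes and p-values were not used, and human data were not analysed here.

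The IRF genes, the gene lists around them and the tests were chosen with earlier results of these data known. The filter asked for 1 TPM or more in 2 or more libraries, and log2(TPM + 1) was fitted with limma 3.58.1 in R 4.3.3, with 1 mean per group, a separate fit for each table and a trend in the prior variance. All p-values are two-sided and adjusted by Benjamini-Hochberg over all genes of a comparison. Called means an adjusted p below 0.05 and a change above 1.5-fold. The libraries are described as biological replicates, and whether each came from another mouse is not given in the sources used here, so p-values measure the spread between these libraries. No 2 libraries had the same values. Tables were scaled separately and the start of Irf5 differs between them, so levels were compared within a table only. Certain genes are not reported here, and the counts of the lists leave them out. Named genes of the lists are those called, with the known role of each. Most alike genes are the 3 with the highest Pearson correlation. Script output was tested on simulated data. Alternatives were other pseudocounts (0.1 and 5 TPM), filters, scalings, a fold threshold of 2, a replicate block, only the groups compared, and leaving out each library.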

Additional observations from a re-analysis of the deposited data

Results flagged for a closer look

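The results below are differences between groups in the response to the same treatment, each tested as a difference of 2 responses with limma. Single outlying libraries were not looked for by their gap to the rest of a group, since groups hold 2 or 3 libraries, and each library was left out in turn instead.

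Against C57 after 24 h of IL-4, the Irf4 response on the log2(TPM + 1) scale differed by 0.62 for SPRET, -0.78 for BALB, -1.21 for NOD and -1.30 for PWK. The Irf1 response differed by -0.63 in BALB and -1.13 in NOD.

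In the time course, SPRET against C57, Irf4 differed by 1.00 at 1 h, 2.00 at 6 h and 2.80 at 24 h, and Irf1 by 0.65 at 1 h and 1.18 at 6 h. At 24 h Irf7 differed by 1.25, Irf8 by -0.68 and Irf9 by -0.68.

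For Egr2MKO against Egr2WT, the Irf4 response differed by -0.94 at 6 h and -0.90 at 24 h. At 24 h Irf7 differed by 1.62, Irf1 by 0.70 and Irf9 by 0.62.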

How the results depend on the processing

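Calls of IRF genes kept their direction in most alternatives, and calls moved with the fold threshold, the pseudocount and the scaling. Of 175 calls, 146 were kept with a pseudocount of 5 TPM and 173 with 0.1 TPM. Median-ratio scaling kept 153 and quantile normalization 157, and each also gained calls, for a total of 162. With a threshold of 2-fold the calls were 3 of 8 for the 24 h responses of the strains, 3 of 6 for their differences from C57, 23 of 40 for basal and 19 of 42 for IL-4 differences between strains, 8 of 14 for the time course, 5 of 8 for its strain difference, 7 of 12 for the responses of the Egr2 genotypes, 1 of 5 for their difference, and 24 of 64 for the lists in the strains. A pseudocount of 5 TPM left 5 calls for the responses, 2 for their differences and 41 for the lists. The difference between Egr2 genotypes in response fell to 3 calls with a pseudocount of 0.1 TPM and with median-ratio scaling.

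Leaving out single libraries gave 3 to 5 calls for that difference, with 3 without the second Egr2WT basal or the first Egr2MKO basal library. It gave 7 to 8 for the responses of the strains, 5 to 6 for their differences, 39 to 41 for basal and 41 to 43 for IL-4 levels, 14 to 15 and 7 to 9 for the time course and its strain difference, 11 to 13 for Egr2MKO against Egr2WT, 12 to 13 for the responses of the genotypes and 62 to 69 for the lists. Allele ratios past 1.5-fold were 2, and 3 from either single F1 replicate or with 0.1 added in place of 1.

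Scaling moved the median of all genes by over 0.1 in 21 of 61 comparisons with median ratios, by at most 0.34, and in 18 with quantile normalization. The sign reversed in 5 comparisons between strains: for NOD minus BALB at basal, Irf2 became 0.0949 and 0.0219, Irf4 0.35 and 0.44, and Irf8 0.33 with median ratios only. After IL-4, Irf9 for SPRET minus BALB became -0.0365 and -0.0467, and Irf5 for SPRET minus PWK -0.106 and -0.0911, with median ratios and quantiles in that order. The cause was not tested. Splits of IRF calls moved from 5 up and 3 down to 3 and 3 for the strain responses, from 1 and 5 to 0 and 5 for their differences, and from 3 and 2 to 1 and 2 or 2 and 2 for the Egr2 difference.

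With a replicate block the counts were 8, 6, 40, 42, 14, 8, 12, 12 and 5, equal to the fit without it, and 175 of 175 calls were kept, with 65 for the lists. Deviations of samples with the same replicate number correlated on average by 0.0347 in the 5-strain set. The averages were 0.0405 for the time course and -0.0186 for the Egr2 set. Single pairs reached 0.333 in the 5-strain set and 0.266 in the time course. In groups of 2 libraries the deviations mirror each other, so these values cannot decide whether the numbers pair the samples.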
